A study of Homo sapiens with 12 samples.

Results

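EPZ-6438 and forskolin were compared directly in NCI-H295R cells, an established human adrenocortical carcinoma line that makes steroid hormones. EPZ-6438 inhibits EZH2, the histone H3 lysine methyltransferase of the Polycomb repressive complex PRC2. Forskolin activates adenylyl cyclase and so raises cAMP. The members of the comparison are all genes of the deposited table, 60617 in number, of which 20360 passed the filter on low counts and were tested, in 6 of the 12 libraries sequenced.

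The EPZ-6438 group received 62 µM EPZ-6438 for 96 h, a dose the labels call an IC-50 dose. The forskolin group was kept in the vehicle DMSO for 48 h and was then given 10 µM forskolin for a further 48 h. A baseline group received DMSO for 96 h, and a group given 26 µM PRI-724 for 96 h, also called an IC-50 dose, entered only the estimate of the spread. Each group had 3 biological replicates, grown in 6-well plates. The total culture time of 96 h was the same, but exposure to the compounds was not, so compound, dose and exposure time cannot be told apart in the direct comparison. All libraries come from 1 cell line, and p-values measure the spread between its replicate cultures.

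In the adrenal cortex, ACTH binds the receptor MC2R, which raises cAMP. cAMP releases the catalytic subunits of protein kinase A, and these phosphorylate CREB-family factors and other proteins that switch on the transport of cholesterol into mitochondria and the enzymes that turn it into steroids. PRC2 places the repressive H3K27me3 mark, typically over promoters of developmental regulators such as the HOX genes. Wnt/β-catenin signalling, often active in adrenocortical carcinoma, marks the outer cortex, whereas cAMP signalling marks the inner, cortisol-making cortex.

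Library totals were 29.5 to 31.5 megacounts with EPZ-6438 and 23.4 to 25.4 with forskolin. Pearson correlations of log2 CPM across genes were 0.993 to 0.996 within the groups (6 pairs) and 0.953 to 0.956 between them (9 pairs); genes are not independent, so these only describe the libraries. Replicates differed by more than counting noise in all 6 pairs (chi-square per degree of freedom 2.97 to 6.11), and none was treated as a repeat of another. Of genes of the adrenal cortex, 0 of 18 steroidogenic and 0 of 19 receptor and identity genes were at 0 in all 6 libraries. However, 2 of the 18 and 4 of the 19 averaged under 1 CPM. Of the 19, 1 had at most 3 counts in the 6 libraries together. Of the markers of other cell types, 2 of 9 leukocyte, 1 of 9 chromaffin and neuroendocrine, 1 of 8 epithelial, 0 of 9 fibroblast and 0 of 8 endothelial markers were at 0 in all 6 libraries. The leukocyte antigen PTPRC had at most 3 counts in all of them together, and the summed levels are given with the matrix genes.

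The treatments gave widely different transcriptomes. At an adjusted p under 0.05, 12541 genes (61.6% of those tested) differed, 6175 of them higher with EPZ-6438 (30.3%) and 6366 higher with forskolin (31.3%). Both shares are the background for the counts of each list below. The lists were chosen with earlier results of these data known, so their counts are a description and no independent support. Tested against a fold of 1.5, 2177 genes (10.7%) were higher with EPZ-6438 and 1590 (7.81%) higher with forskolin, and against a fold of 2 the counts were 1140 (5.6%) and 661 (3.25%). The 3 libraries of one group lay wholly above or below the 3 of the other for 67.5% of genes, so that a lack of overlap is common here, and for 44.9% the whole 95% interval lay within 1.5-fold. Against DMSO in the same fit, 57.8% of genes passed with EPZ-6438 and 50.6% with forskolin. These comparisons share the DMSO libraries, so their values are given below side by side and not related to each other. Throughout, a positive log2 fold change means higher with EPZ-6438 than with forskolin, and levels are TMM-scaled CPM, counts per megacount of each library after scaling, with the SD over 3 libraries.

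The genes that make steroid hormones had the lowest median of the lists outside the cell markers, on the forskolin side. Of 18 steroidogenic genes, all tested, 13 were higher with forskolin (background 31.3%), 1 was higher with EPZ-6438 and 4 did not pass, and the median log2 fold change was -2.12, against -0.00079 over all genes. The median was -1.75 for EPZ-6438 against DMSO and 0.65 for forskolin against DMSO. Summed over the list, libraries held 987 to 1060 CPM with EPZ-6438, 4710 to 4930 with forskolin and 2670 to 2800 with DMSO.

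STAR, which carries cholesterol to the inner mitochondrial membrane, stood at 157, 167 and 161 CPM in the EPZ-6438 libraries and at 1244, 1200 and 1285 CPM in the forskolin libraries. CYP11A1, the side-chain cleavage enzyme, stood at 49.4, 50.3 and 50.8 CPM against 377, 347 and 371 CPM. The groups were far apart for both genes, 7.69-fold for STAR (log2 fold change -2.94, SE 0.05, adjusted p = 9.59e-21) and 7.27-fold for CYP11A1 (-2.86, SE 0.05, adjusted p = 4.91e-21). FDX1 and FDXR, the electron donors of the mitochondrial steroid hydroxylases, differed by 5.18-fold and 3.65-fold in the same direction. All 4 genes were lower with EPZ-6438 and higher with forskolin than with DMSO.

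Differences were wider further along the pathway. HSD3B2 (chromosome 1, 119414931 to 119423035), which converts pregnenolone to progesterone, had 4.38, 4.37 and 3.08 CPM with EPZ-6438 and 164, 159 and 163 CPM with forskolin. This is a 40.9-fold difference (log2 fold change -5.35, SE 0.09, adjusted p = 9.38e-21). CYP17A1, which directs precursors to cortisol and androgens, stood at 13.1 ± 0.346 CPM (SD, n = 3) against 136 ± 2.30 CPM, 10.4-fold apart. CYP21A2, the 21-hydroxylase, had 37.0, 39.0 and 38.1 CPM with EPZ-6438 and 1262, 1257 and 1296 CPM with forskolin, a 33.5-fold difference (log2 fold change -5.06, SE 0.05, adjusted p = 1.61e-23). Against DMSO it fell with EPZ-6438 (-3.02) and rose with forskolin (2.04). Its near-identical pseudogene copy CYP21A1P differed by 32.1-fold, and reads of the pair may have been exchanged in counting.

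The final enzymes of both branches were also on the forskolin side, at low levels. CYP11B1, which makes cortisol, had 0.340, 0.166 and 0.331 CPM with EPZ-6438 and 7.31, 7.82 and 6.46 CPM with forskolin. CYP11B2, which makes aldosterone, had 0.247, 0.265 and 0.232 CPM against 11.6, 9.64 and 9.23 CPM. The log2 fold changes were -4.66 (SE 0.24) and -5.33 (SE 0.24). Reads of these closely related neighbours may likewise be split. Against DMSO, CYP11B1 rose with forskolin (4.02) and did not pass with EPZ-6438 (-0.64, adjusted p = 0.205), whereas CYP11B2 rose with forskolin (2.82) and fell with EPZ-6438 (-2.51).

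A few members of the pathway did not follow this order. AKR1C3, an aldo-keto reductase that makes testosterone, was the steroidogenic gene that passed as higher with EPZ-6438, at 54.8 ± 1.27 against 21.0 ± 2.15 CPM (log2 fold change 1.38, SE 0.06). SULT2A1, the sulfotransferase that makes DHEA sulfate, was low under both compounds: 8.65, 9.73 and 9.47 CPM with EPZ-6438 and 8.42, 8.65 and 7.17 CPM with forskolin, with overlapping groups, against 74.2 ± 5.26 CPM with DMSO. The direct difference did not pass (0.20, 95% interval 0.00 to 0.39, adjusted p = 0.0720), while each fall from DMSO did (-3.00 and -3.19). Without EPZ-6438 replicate 1, or with scaling by library size only, SULT2A1 passed as higher with EPZ-6438, and with that scaling so did H6PD, which supplies reducing power in the endoplasmic reticulum (0.17, adjusted p = 0.0322). In the fit as reported, TSPO, CYB5A and H6PD did not pass, with log2 fold changes of -0.16, -0.07 and 0.08 and 95% intervals within 1.5-fold.

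**Figure D1:**
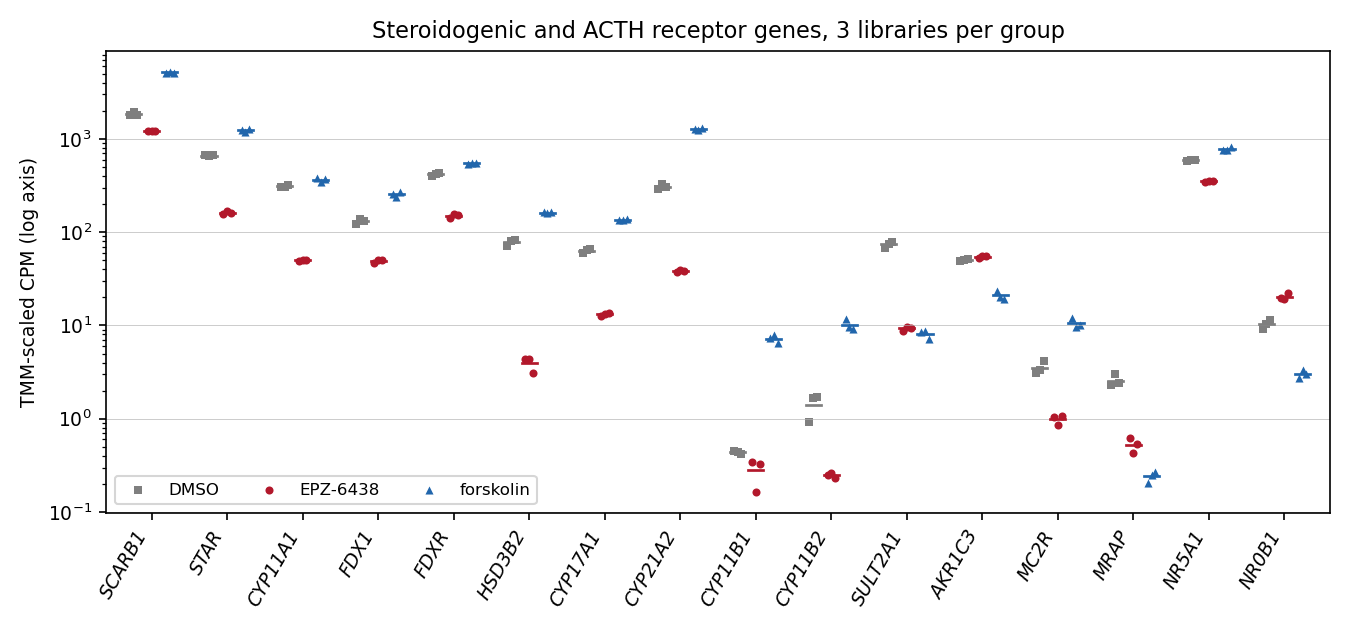
TMM-scaled CPM (log axis) of steroidogenic and ACTH receptor genes in each library, with grey squares for DMSO, red circles for EPZ-6438, blue triangles for forskolin, and bars at the means of 3 libraries. The forskolin points lie above the EPZ-6438 points from SCARB1 to CYP11B2, the groups overlap for SULT2A1, and the order is reversed for AKR1C3, MRAP and NR0B1.

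Receptors and regulators of the cortex were split. Of 20 such genes, 16 were tested, 9 were higher with forskolin (background 31.3%), 5 higher with EPZ-6438 (background 30.3%) and 2 did not pass. The share higher with EPZ-6438 was thus near background. SCARB1, the receptor that takes up cholesterol from HDL, stood at 1213 ± 8.05 CPM with EPZ-6438 and 5150 ± 89.4 CPM with forskolin (log2 fold change -2.09, SE 0.04). The ACTH receptor MC2R had 1.05, 0.861 and 1.06 CPM against 12, 9.64 and 10.1 CPM (-3.41, SE 0.15, adjusted p = 5.71e-14). MRAP, the accessory protein that brings MC2R to the cell surface, went the other way, with 0.618, 0.430 and 0.530 CPM against 0.205, 0.248 and 0.269 CPM (1.12, SE 0.34, adjusted p = 0.00812). MRAP was lower than DMSO (2.55 ± 0.375 CPM) under both compounds.

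The nuclear receptors that set steroidogenic transcription differed in opposite directions. NR5A1, encoding the activator SF-1, stood at 351 ± 7.81 CPM with EPZ-6438 and 781 ± 28.6 CPM with forskolin (-1.16, SE 0.05). NR0B1, encoding DAX-1, a repressor of SF-1, had 19.6, 19.0 and 22.4 CPM against 2.75, 3.31 and 3.05 CPM (2.74, SE 0.12, adjusted p = 3.99e-14). Against DMSO, NR5A1 fell with EPZ-6438 (-0.75) and rose with forskolin (0.41), and NR0B1 rose with EPZ-6438 (0.98) and fell with forskolin (-1.76). GNRHR, the receptor of gonadotropin-releasing hormone, and FATE1, an SF-1 target on the X chromosome, differed mainly through their fall with EPZ-6438 (-5.06 and -4.30 against DMSO), and stood 26.7-fold and 21.9-fold higher with forskolin. IGF2, the growth factor gene typically overexpressed in adrenocortical carcinoma, had 4166, 4144 and 4068 CPM with EPZ-6438 and 3110, 3496 and 3730 CPM with forskolin. Its groups did not overlap, and the difference lay at the threshold (0.26, 95% interval 0.03 to 0.49, adjusted p = 0.0502). It passed with DESeq2 (adjusted p = 0.0336), with the other scalings and filters, in the fit of the 6 libraries (7.1e-05) and without forskolin replicate 3, always higher with EPZ-6438.

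Genes of the outer, aldosterone-making zona glomerulosa showed no common direction. All 17 were tested, with a median log2 fold change of 0.20. Of these, 8 were higher with EPZ-6438 (background 30.3%), 5 higher with forskolin (background 31.3%) and 4 did not pass. Without EPZ-6438 replicate 1 only 5 were higher with EPZ-6438. The stem-cell receptor LGR5 (2.66), the ligand WNT4 (2.04) and the calcium sensor CALN1 (1.73) were on the EPZ-6438 side, whereas CYP11B2 and the calcium pump ATP2B3 (-1.45) were on the forskolin side. AGTR1, the angiotensin II receptor, stood at 30.1 ± 1.44 and 32.5 ± 1.15 CPM with overlapping groups (-0.11, 95% interval -0.22 to 0.00, adjusted p = 0.0846), and had fallen from 65.5 ± 2.34 CPM with DMSO under either compound.

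Genes that respond to cAMP and CREB were mostly higher with forskolin. Of 32, 29 were tested, and the median log2 fold change was -1.02. Of these, 19 were higher with forskolin (background 31.3%), 8 higher with EPZ-6438 (background 30.3%) and 2 did not pass. Against DMSO the list median was above 0 under both compounds, 0.49 with EPZ-6438 and 1.24 with forskolin. The nuclear receptors NR4A1 and NR4A3, early-response genes of ACTH signalling, were among those furthest apart. NR4A3 had 19.8, 19.1 and 19.5 CPM with EPZ-6438 and 204, 211 and 224 CPM with forskolin (-3.45, SE 0.06, adjusted p = 1.39e-20), and NR4A1 258 ± 2.91 against 1095 ± 11.4 CPM. Both fell with EPZ-6438 and rose with forskolin against DMSO.

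The secreted products in the list took different values against DMSO. VGF, a secreted neuropeptide precursor, had 1028, 1007 and 1072 CPM with EPZ-6438 and 8196, 8522 and 9025 CPM with forskolin, against 434 ± 19.7 CPM with DMSO, so that it rose with both (1.25 and 4.30) and differed 8.29-fold between them. INHBA, the activin A subunit, likewise rose with both, and stood at 10.2 ± 0.799 against 45.6 ± 2.43 CPM. AREG, the EGF-receptor ligand amphiregulin, had 0.463, 0.397 and 0.397 CPM against 6.90, 8.19 and 7.04 CPM (-4.12, SE 0.20, adjusted p = 2.40e-13), and passed against DMSO only with forskolin (4.61). CREM, whose short ICER products repress CREB targets, had 89.7, 88.3 and 90.1 CPM against 209.7, 187 and 203 CPM (-1.16), counted over all its transcripts. On the EPZ-6438 side were PPARGC1A (2.21), THBS1 (1.98) and KLF4 (1.22), a coactivator of mitochondrial genes, a matrix glycoprotein and a transcription factor.

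The promoters of 3 genes higher with forskolin are printed because, among named genes with a promoter in the table, they were selected with LINC02539 by the number of matches to the core of the cAMP response element, the SF-1 site and the TCF/LEF site CTTTGAT. Ties were broken by the size of the difference, which left out VGF and PDE7B among others. Sequences are from RefSeq (GRCh38.p14), plus strand as for the genes, and run from 250 bases before to 50 after the RefSeq start of transcription. Capitals mark the core of the cAMP response element, TGACG, on either strand, the whole palindromic element TGACGTCA, or the SF-1 site AAGGTCA.
NR4A3, chr9:99821635-99821934: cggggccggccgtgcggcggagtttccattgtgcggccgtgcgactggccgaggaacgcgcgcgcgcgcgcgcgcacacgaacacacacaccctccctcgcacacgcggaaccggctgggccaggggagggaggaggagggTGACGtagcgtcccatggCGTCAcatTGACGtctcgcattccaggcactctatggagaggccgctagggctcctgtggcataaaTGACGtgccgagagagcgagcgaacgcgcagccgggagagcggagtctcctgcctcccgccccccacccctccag
CYP21A2, chr6:32038165-32038464: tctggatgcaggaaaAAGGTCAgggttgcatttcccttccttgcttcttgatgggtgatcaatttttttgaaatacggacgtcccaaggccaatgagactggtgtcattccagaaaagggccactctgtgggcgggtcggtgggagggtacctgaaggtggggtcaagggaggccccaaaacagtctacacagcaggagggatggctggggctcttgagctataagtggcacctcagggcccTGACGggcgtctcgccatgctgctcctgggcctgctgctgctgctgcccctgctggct
AREG, chr4:74444886-74445185: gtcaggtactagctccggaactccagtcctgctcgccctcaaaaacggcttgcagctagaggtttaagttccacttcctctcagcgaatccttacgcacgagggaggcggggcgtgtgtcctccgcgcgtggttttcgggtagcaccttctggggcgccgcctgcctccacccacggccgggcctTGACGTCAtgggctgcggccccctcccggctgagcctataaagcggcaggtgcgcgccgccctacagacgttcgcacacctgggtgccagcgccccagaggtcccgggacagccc
NR4A3 holds 4 separate cores, CYP21A2 1 core and 1 SF-1 site, and AREG the whole element. Because the element is a palindrome, it counts as 2 overlapping core matches.

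Over 27305 RefSeq promoters of this length, 25% held the core and 1.98% the whole element, and over 12669 matched to genes tested 33.5% and 3.2%. Of the cAMP and CREB response genes with a promoter, 14 of 23 (60.9%) held the core and 3 (13%) held the whole element (AREG, DUSP1 and VGF). Among the other lists, the share with the core ran from 0% (Wnt) to 55.6% (cholesterol synthesis and uptake). The share with the whole element ran from 0% (Wnt and others) to 18.2% (cAMP phosphodiesterases). For genes more than 1.5-fold higher with forskolin the shares were 31.2% and 3.83%, and for those higher with EPZ-6438 25.2% and 2.41%. The SF-1 site was present in 3 of 12 steroidogenic promoters (CYP21A2, H6PD and HSD3B1) against 2.71% of promoters of genes tested. Of these, H6PD did not pass between the compounds. The letters are a description of these windows and no binding was measured.

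Components upstream and downstream of cAMP were mixed. Of 13 protein kinase A subunits, inhibitors and anchoring proteins, 5 were higher with forskolin (background 31.3%), 6 higher with EPZ-6438 (background 30.3%) and 2 did not pass. PRKAR2B, a regulatory subunit, stood at 144 ± 9.86 with EPZ-6438 and 681 ± 34.2 CPM with forskolin (-2.24, SE 0.05), and the catalytic subunit gene PRKACA at 148 ± 4.12 and 272 ± 7.54 CPM (-0.88, SE 0.04). The anchoring proteins AKAP12 (1.40) and AKAP13 (1.25) were higher with EPZ-6438. Of 16 cAMP phosphodiesterases, which break cAMP down, 13 were tested, with 5 higher with forskolin and 6 higher with EPZ-6438, beside the same backgrounds. PDE7B (-1.83) and PDE10A (-1.56) differed most on the forskolin side, and PDE11A (2.59) and PDE3B (1.71) on the EPZ-6438 side. PDE8B, the adrenal phosphodiesterase, was near 1 CPM in both groups (1.16 ± 0.349 and 1.03 ± 0.106 CPM, adjusted p = 0.579), and its sign turned without EPZ-6438 replicate 2.

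Wnt targets and feedback genes had the highest median of the lists outside the cell markers, on the EPZ-6438 side. Of 27, 26 were tested and all passed, 20 higher with EPZ-6438 (background 30.3%) and 6 higher with forskolin, with a median log2 fold change of 1.72. Each of those 20 also passed the test against 1.5-fold (background 10.7%). The median was 0.74 for EPZ-6438 and -0.73 for forskolin, each against DMSO.

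AXIN2, a scaffold of the β-catenin destruction complex and its classical feedback target, had 197, 191 and 191 CPM with EPZ-6438 and 44.9, 46.9 and 46.5 CPM with forskolin (2.07, SE 0.04, adjusted p = 6.36e-19). NKD1, a feedback inhibitor, had 1338, 1291 and 1237 CPM against 194, 211 and 206 CPM (2.66, SE 0.06). APCDD1, a membrane inhibitor of Wnt, had 1208, 1238 and 1161 CPM against 160, 142 and 146 CPM (3.01, SE 0.06). DMSO lay between the compounds for all 3 genes. NOTUM, the secreted Wnt deacylase, differed by 11.3-fold (92.7 ± 2.15 against 8.20 ± 0.642 CPM), and LEF1, a partner of β-catenin on DNA, by 3.38-fold.

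Some genes passed against DMSO with 1 compound only. CCND1, cyclin D1, had 22.4, 22.8 and 22.6 CPM with EPZ-6438, 1.52, 1.95 and 2.60 CPM with forskolin and 2.24 ± 0.0674 CPM with DMSO, so its 11.2-fold difference lay in the rise with EPZ-6438 (3.33). The ligand gene WNT4, of the zona glomerulosa list, stood at 308 ± 13.4 CPM with EPZ-6438, 74.7 ± 2.03 CPM with forskolin and 289.8 ± 10.1 CPM with DMSO, and passed against DMSO with forskolin only (-1.96). Against the direction of the Wnt list, the inhibitor DKK1 stood at 7.62 ± 0.348 against 28.1 ± 2.38 CPM (-1.88), TCF7 at -0.63 and MYC at -0.54. CTNNB1, which encodes β-catenin itself, was lower with EPZ-6438 (971 ± 18.7 against 1253 ± 17.4 CPM, log2 fold change -0.37, SE 0.03).

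**Figure D2:**
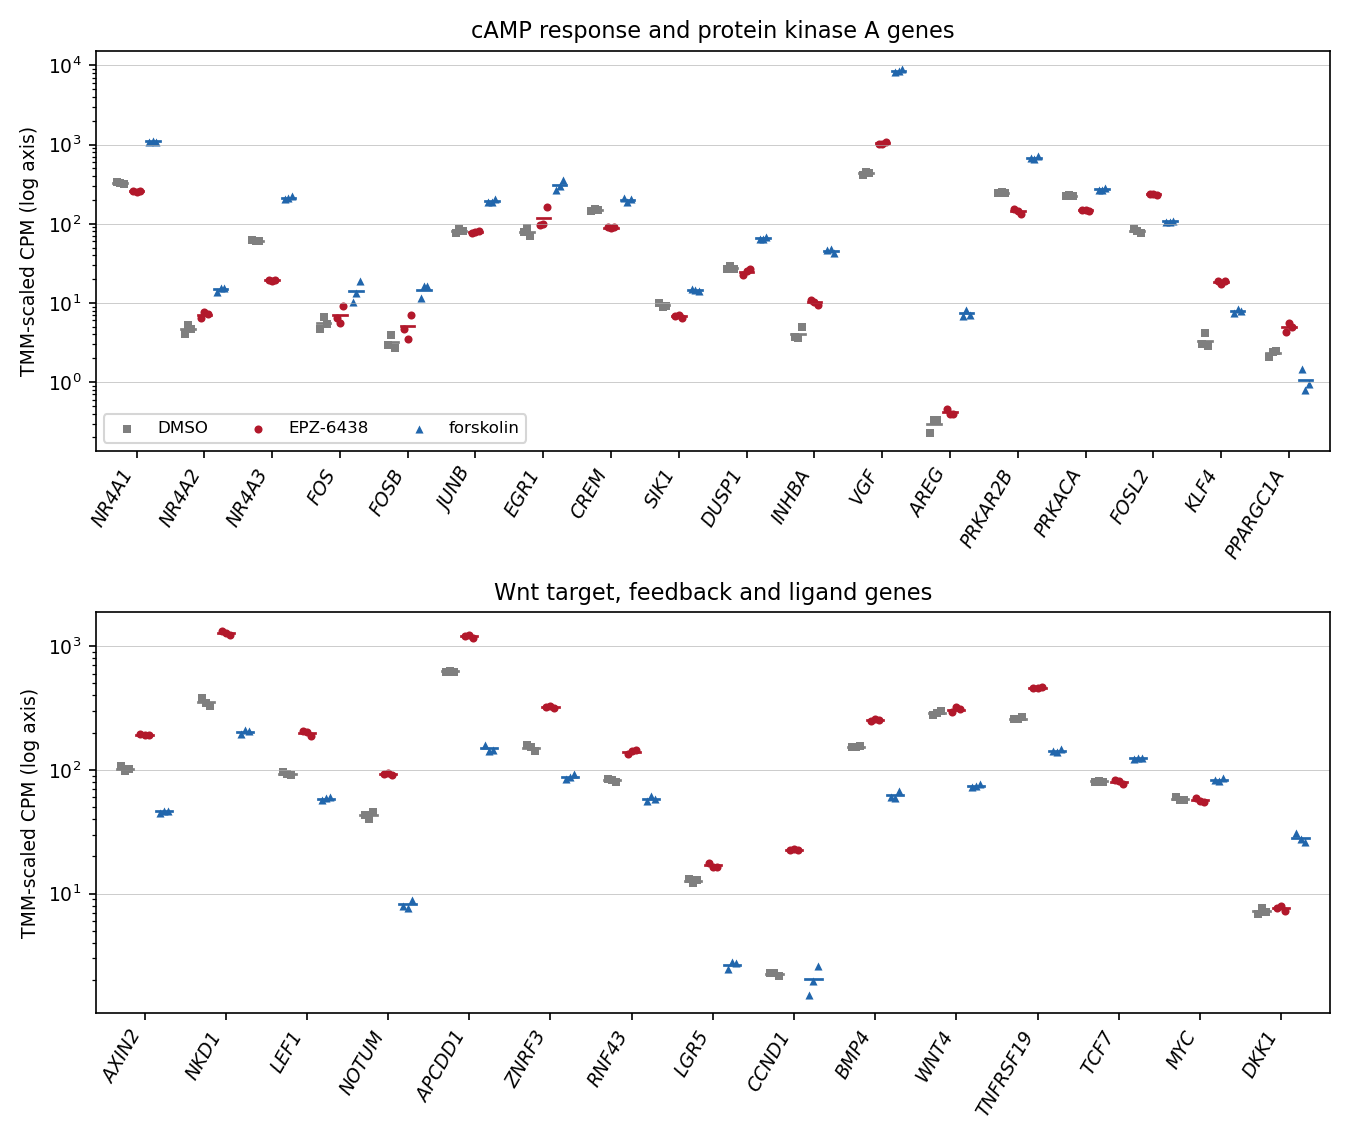
TMM-scaled CPM (log axis) in each library for cAMP response and protein kinase A genes (top) and Wnt target, feedback and ligand genes (bottom), with grey squares for DMSO, red circles for EPZ-6438, blue triangles for forskolin and bars at the means. Forskolin lies highest for most genes from NR4A1 to PRKACA, and lowest on average for the Wnt genes from AXIN2 to TNFRSF19, whereas TCF7, MYC and DKK1 are highest with forskolin.

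The target of EPZ-6438 showed no detectable difference in its own mRNA. EZH2 had 96.7, 96.1 and 98.7 CPM with EPZ-6438 and 99.4, 96.1 and 96.9 CPM with forskolin (-0.0043, 95% interval -0.09 to 0.08, adjusted p = 0.935), and the groups overlapped. mRNA does not report the enzyme's activity, and the H3K27me3 mark was not measured here. For 11 of 12 PRC2 subunits, all tested, the interval lay within 1.5-fold. Over all genes the share was 44.9%, but these include genes at low counts, whose intervals are widest. At the threshold, 5 subunits were higher with EPZ-6438 (background 30.3%) and 2 higher with forskolin (background 31.3%). With scaling by library size only, 8 were higher with EPZ-6438, PHF19, EPOP and SUZ12 being added. The exception was the accessory subunit JARID2, at 158, 153 and 151 CPM against 69.3, 75.5 and 74.4 CPM (1.08, SE 0.05). EED, the subunit that reads H3K27me3, was lower with EPZ-6438 (-0.42), and SUZ12 did not pass (0.09, 95% interval -0.01 to 0.18, adjusted p = 0.105), though it passed with that scaling and without forskolin replicate 3.

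HOX genes, which specify position along the body axis, were mostly higher with EPZ-6438. Of 39, 35 were tested, with a median log2 fold change of 0.58. Of these, 26 were higher with EPZ-6438 (background 30.3%), 5 higher with forskolin (background 31.3%) and 4 did not pass. The clusters differed: 9 of 9 tested in HOXC (median 1.14) and 6 of 6 in HOXD (1.24) were higher with EPZ-6438, as were 8 of 11 in HOXA (0.28), but 3 of 9 in HOXB (-0.10), where 4 were higher with forskolin. No test compared the clusters.

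Among HOX genes, HOXC11 and HOXD1 differed most. HOXC11 had 2.35, 2.32 and 1.85 CPM with EPZ-6438, 0.493, 0.248 and 0.359 CPM with forskolin and 1.66 ± 0.277 CPM with DMSO (2.55, SE 0.25, adjusted p = 2.60e-08), and against DMSO it passed with forskolin only. HOXD1 had 2.22, 2.65 and 3.51 CPM against 0.329, 0.621 and 0.493 CPM and 0.385 ± 0.162 CPM with DMSO (2.52, SE 0.26), and passed with EPZ-6438 only. HOXB4 was higher with forskolin (1.67 ± 0.160 against 3.66 ± 1.14 CPM, -1.13). Neighbouring HOX genes overlap in the annotation, so some reads may belong to more than one.

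**Figure D3:**
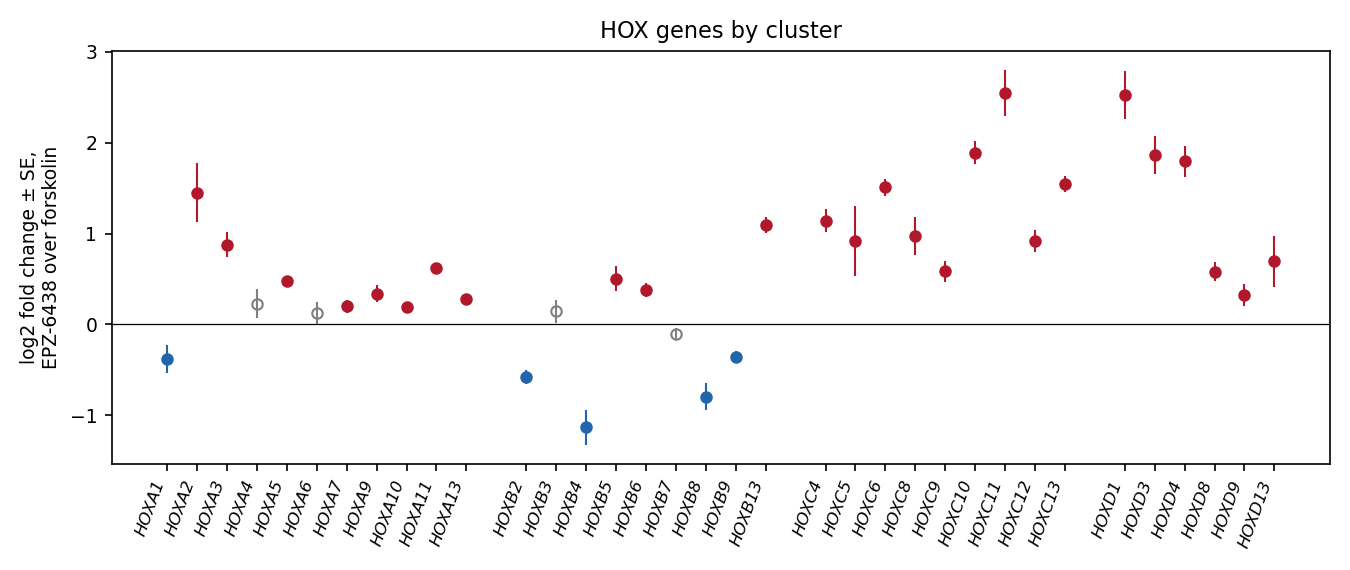
Log2 fold change of EPZ-6438 over forskolin with its SE for the HOX genes tested, ordered by cluster, with filled red points higher with EPZ-6438, filled blue points higher with forskolin and open grey points not past the threshold. All points of the HOXC and HOXD clusters lie above 0, and the points of HOXB lie on both sides.

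Other developmental regulators that PRC2 typically covers leaned the same way. Of 60, 48 were tested, with a median log2 fold change of 0.69. Of these, 35 were higher with EPZ-6438 (background 30.3%), 7 higher with forskolin (background 31.3%) and 6 did not pass. The filter removed members too low in every group, so these counts say nothing of the 12 others. A member low in the other groups could pass the filter through its level with EPZ-6438 alone, which can tilt the count to that side. The same filter applied to the other lists. DLX3, a homeobox gene of skin and bone, had 28.7, 27.4 and 28.1 CPM with EPZ-6438 and 0.329, 0.414 and 0.359 CPM with forskolin (6.24, SE 0.17, adjusted p = 2.10e-17). MSX2, a homeobox repressor, had 73.1, 78.1 and 78.3 CPM against 1.07, 1.12 and 1.84 CPM (5.84, SE 0.11). Both lay between these values with DMSO, at 3.49 ± 0.953 and 5.89 ± 0.526 CPM. FOXF1, a mesodermal forkhead factor (5.27), and PAX6, an eye and neural factor (3.78), were also higher with EPZ-6438, whereas FOXC2 (-1.30), SOX8 (-1.15) and OTX1 (-1.14) were higher with forskolin. The cell cycle inhibitor gene CDKN2A, a classical PRC2 target, did not differ detectably (213 ± 11.1 and 214 ± 8.45 CPM, 95% interval -0.31 to 0.29, adjusted p = 0.972).

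Genes of axon guidance and neural adhesion were also higher with EPZ-6438 for the most part. Of 43, 35 were tested (median 0.58). Of these, 22 were higher with EPZ-6438 (background 30.3%), 7 higher with forskolin (background 31.3%) and 6 did not pass. CNTN1, a neural adhesion molecule, had 53.6, 55.2 and 55.5 CPM with EPZ-6438 and 1.52, 1.20 and 1.43 CPM with forskolin (5.30, SE 0.10). The guidance molecules EPHA5 (4.81), SEMA5A (4.13) and the netrin receptor UNC5B (3.77) followed, while EPHB1 (-0.84), NRP1 (-0.72) and NTN4 (-0.58) were higher with forskolin.

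Mesenchymal and matrix genes differed in both directions. Of 35, 34 were tested (median 0.55). Of these, 21 were higher with EPZ-6438 (background 30.3%), 11 higher with forskolin (background 31.3%) and 2 did not pass. The share higher with forskolin was thus near background. Fibronectin, FN1, had 801, 747 and 706 CPM with EPZ-6438 and 94.5, 101.2 and 96.7 CPM with forskolin (2.95, SE 0.05, adjusted p = 1.89e-20), and the fibrillar collagen gene COL3A1 (1.65) and the secreted TGFBI (3.41) were on the same side. The basement membrane collagen gene COL4A1 was on the other, at 165 ± 3.14 against 639.8 ± 36.3 CPM (-1.96), with the proteoglycan genes ACAN (-2.55) and DCN (-2.72). The proteoglycan gene LUM had 0.0926, 0.0662 and 0 CPM with EPZ-6438, 5.46, 4.10 and 4.26 CPM with forskolin, and 0.0397 ± 0.0371 CPM with DMSO.

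Markers of fibroblasts differed as well, and 5 of the 9 (COL1A1, COL1A2, COL3A1, DCN and LUM) are also members of the matrix list. The 9 markers summed to 86.4 to 95.8 CPM with EPZ-6438, 40.6 to 41.2 with forskolin and 73.0 to 76.9 with DMSO. They did not move as one: of 7 tested, 5 were higher with EPZ-6438, led by THY1 (3.38), and LUM and DCN were higher with forskolin. None of the 9 was at 0 in all 6 libraries. Epithelial markers summed to 16.8 to 18.2 CPM with EPZ-6438 and 38.2 to 40.5 with forskolin (3 of 4 tested higher with forskolin, KRT18, EPCAM and KRT8), and endothelial markers to 3.24 to 4.73 against 1.07 to 1.64 CPM, mostly KDR (5.30). The chromaffin and neuroendocrine sums were 74.7 to 81.1 and 62.8 to 66.5 CPM, and the leukocyte sums 1.49 to 2.13 and 2.34 to 3.33 CPM. Their part in the results was not tested. In a culture, a change in the mix of cells and a change in RNA per cell cannot be told apart.

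The 10 largest differences in each direction, among well expressed genes whose groups did not overlap, were of mixed kinds. On the EPZ-6438 side, COL8A1 (chromosome 3, 99638475 to 99799226), a short-chain collagen gene, had 47.5, 50.8 and 51.2 CPM with EPZ-6438, 0, 0.124 and 0 CPM with forskolin and 0.597 ± 0.340 CPM with DMSO. With 3 counts in all forskolin libraries the ratio was 1174, with an exact 95% counting interval of 401.6 to 5697. The others were ADAMTSL2 and DCHS2, of the matrix and of cell adhesion, DLX3, MSX2 and ATOH8, which are transcription factors, the chemokine gene CXCL14, the pro-apoptotic BMF, the transcription factor gene NFATC2 and the potassium channel gene KCNC2, with log2 fold changes from 5.32 to 7.88. BMF had 154, 170 and 158 CPM against 2.84, 3.27 and 2.91 CPM, and DMSO lay between at 30.1 ± 0.405 CPM. KCNC2 differed mainly through its fall with forskolin, from 9.64 ± 1.49 CPM with DMSO to 0.368 ± 0.106 CPM.

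On the forskolin side, FAM166B (chromosome 9, 35561831 to 35563899) had 2.07, 1.79 and 2.28 CPM with EPZ-6438 and 161, 147 and 146 CPM with forskolin (-6.20, SE 0.09, adjusted p = 3.57e-21). It overlaps the end of RUSC2, which also differed (-1.04), and whether counting used strand is not known here. The others were ADGRD1, an adhesion receptor that couples to cAMP signalling, UTS2, which encodes the peptide urotensin 2, GCNA, a germ-cell nuclear protein gene, the non-coding LINC02539, HSD3B2, CYP21A2 and CYP21A1P, the chemokine gene CCL22, and TFPI2, a protease inhibitor gene. GCNA had 5.09, 4.93 and 4.24 CPM against 220.1, 198 and 222 CPM, and TFPI2 28.4 ± 1.12 against 699 ± 46.0 CPM. All 10 rose with forskolin and fell with EPZ-6438 against DMSO, GCNA by 4.85 and -0.64 and ADGRD1 by 4.95 and -0.76.

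**Figure D4:**
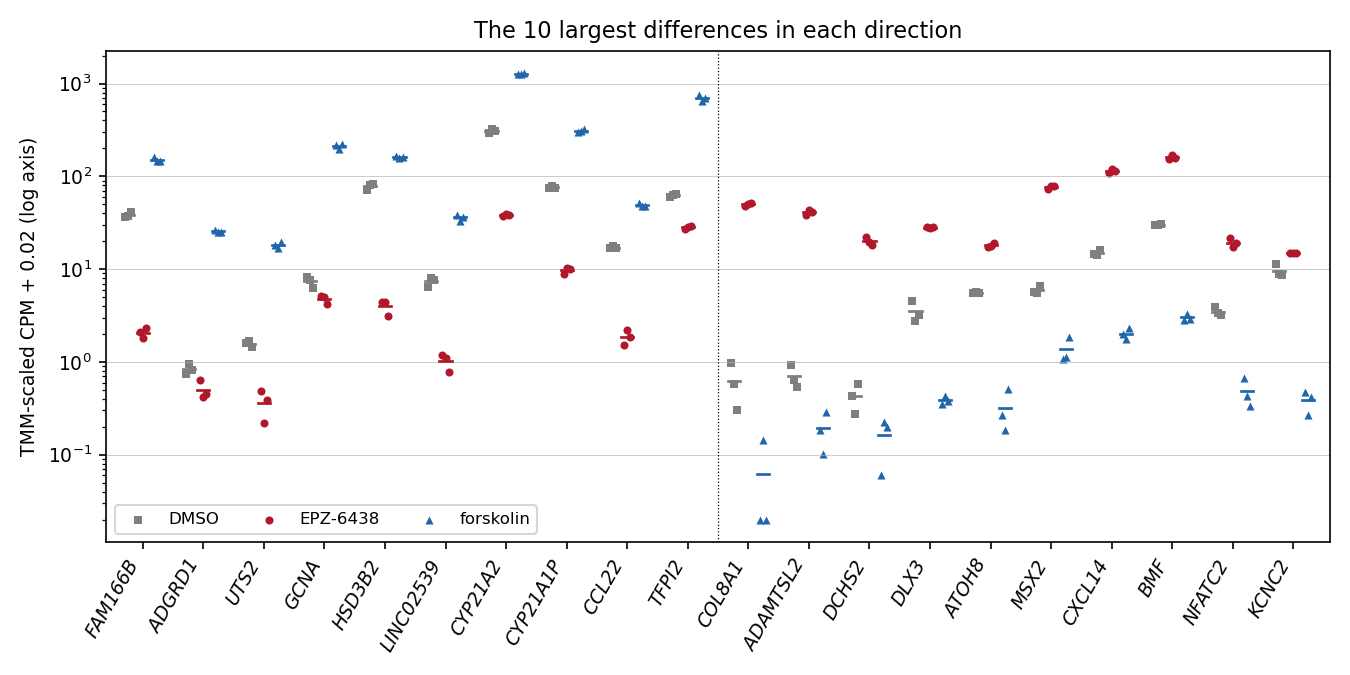
TMM-scaled CPM plus 0.02 (log axis) in each library for the 10 genes with the largest difference on the forskolin side (left of the dotted line) and on the EPZ-6438 side (right), with grey squares for DMSO, red circles for EPZ-6438, blue triangles for forskolin and bars at the means. On the right, COL8A1 reaches 51.2 CPM with EPZ-6438 where 2 forskolin libraries are at 0.

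Cholesterol synthesis and uptake genes, which supply the substrate of steroid synthesis, were higher with forskolin. Of 25, 24 were tested (median -0.68). Of these, 21 were higher with forskolin (background 31.3%), 2 higher with EPZ-6438 (background 30.3%) and 1 did not pass. DHCR7, the last step of cholesterol synthesis, had 87.9, 85.8 and 87.8 CPM with EPZ-6438 and 259, 266 and 276 CPM with forskolin (-1.62, SE 0.04, adjusted p = 2.46e-17), with DMSO between at 149 ± 7.47 CPM. IDI1, an isomerase gene of the isoprenoid steps, differed by 2.23-fold in the same direction (38.4 ± 0.743 against 85.5 ± 5.71 CPM). INSIG1, which holds back the SREBP factors, was higher with EPZ-6438 (0.25), as was PMVK (0.24). HMGCS1 did not pass (0.04, 95% interval -0.05 to 0.13, adjusted p = 0.422). The 15 fatty acid synthesis genes went in both directions. Of these, 7 were higher with EPZ-6438 (background 30.3%), 3 higher with forskolin (background 31.3%) and 5 did not pass.

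Genes of DNA replication leaned to forskolin and fewer of mitosis to EPZ-6438, mostly by small differences. Of 40 replication genes, 28 were higher with forskolin (background 31.3%), none higher with EPZ-6438 (background 30.3%) and 12 did not pass (median -0.25). The interval lay within 1.5-fold for 33, against 44.9% of all genes, low-count genes included. RRM2, a subunit of ribonucleotide reductase, had 145, 153 and 153 CPM against 248, 233 and 257 CPM (-0.71, SE 0.04), and the licensing factor gene CDT1 84.4 ± 1.80 against 144 ± 6.25 CPM. Of 41 mitosis genes, 19 were higher with EPZ-6438 (background 30.3%), 6 higher with forskolin (background 31.3%) and 16 did not pass (median 0.09). The interval lay within 1.5-fold for 35 of them. Against DMSO, the medians of both lists were negative under both compounds. They were -0.32 with EPZ-6438 and -0.10 with forskolin for replication, and -0.39 and -0.51 for mitosis. The kinesin gene KIF20A had 88.7, 88.3 and 91.5 CPM against 48.5, 47.6 and 49.6 CPM (0.88, SE 0.04), and MKI67, the proliferation antigen, 644 ± 53.0 against 434 ± 32.3 CPM (0.57, SE 0.09). With scaling by library size only, 2 replication genes were higher with EPZ-6438 and 3 mitosis genes higher with forskolin. CDK1, the mitotic kinase gene, stood at 133 ± 1.63 and 131 ± 7.20 CPM (0.03, 95% interval -0.07 to 0.13, adjusted p = 0.638), and fell from 187 ± 6.06 CPM with DMSO under both.

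Integrated stress response genes, which the factor ATF4 controls, lay above DMSO in their median under both compounds, while single members differed between them. The median of the 34 genes was 1.01 for EPZ-6438 and 0.94 for forskolin against DMSO, and -0.12 between them. Of the 34, 10 were higher with EPZ-6438 (background 30.3%), 16 higher with forskolin (background 31.3%) and 8 did not pass. The share higher with EPZ-6438 was thus near background. DDIT3, encoding CHOP, stood at 43.1 ± 1.33 and 45.4 ± 3.75 CPM (-0.07, 95% interval -0.21 to 0.06, adjusted p = 0.346), against 16.0 ± 0.501 CPM with DMSO. TRIB3, a CHOP target, had 170, 168 and 168 CPM against 477, 494 and 508 CPM (-1.55), and the glycine transporter gene SLC6A9 differed by 3.74-fold in the same direction. NUPR1, a stress-induced nuclear protein gene, had 22.5, 22.5 and 19.9 CPM against 3.41, 2.73 and 4.12 CPM (2.67). Of 22 ER chaperone and unfolded protein response genes, 9 were higher with EPZ-6438 and 6 higher with forskolin, beside the same backgrounds, and 7 did not pass. The share higher with forskolin was near background. The interval lay within 1.5-fold for 17, against 44.9% of all genes, low-count genes included. The sensor gene ERN1 was on the forskolin side (-1.30) and the secreted factor gene MANF on the EPZ-6438 side (0.62).

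Targets of NRF2, the oxidative stress factor, were mostly higher with EPZ-6438. Of 22, all tested, 18 were higher with EPZ-6438 (background 30.3%), 1 higher with forskolin (background 31.3%) and 3 did not pass (median 0.60). Haem oxygenase, HMOX1, had 144, 147 and 150 CPM with EPZ-6438 and 21.5, 18.9 and 21.4 CPM with forskolin (2.84, SE 0.05), with 30.9 ± 0.653 CPM with DMSO. The ferritin gene FTH1 (1.13) and NQO1 (1.03), a quinone reductase gene, were on the same side. Of 16 heat shock chaperone genes, 7 were higher with EPZ-6438 and 7 higher with forskolin, beside the same backgrounds, and 2 did not pass. The mitochondrial chaperonin genes HSPD1 (321 ± 9.75 against 2243 ± 64.1 CPM, -2.80) and HSPE1 (-2.53) were on the forskolin side, and the small heat shock protein genes CRYAB (1.44) and HSPB1 (1.35) on the EPZ-6438 side. HSPD1 and HSPE1 overlap in the annotation.

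Genes of the ribosome and of the respiratory chain were nearly all higher with forskolin. All 55 cytosolic ribosomal protein genes were higher with forskolin (background 31.3%), 21 of them past 1.5-fold (background 7.81%). The median was -0.60, with a range from -1.23 for RPS3A to -0.19 for RPL22. Against DMSO the median was -0.52 with EPZ-6438 and 0.15 with forskolin. RPS3A had 264, 302 and 293 CPM with EPZ-6438 and 732, 610 and 674 CPM with forskolin. As a share of all counts these genes took 2.27% ± 0.0459 with EPZ-6438 and 3.31% ± 0.172 with forskolin (exact two-sided permutation p = 0.1, the smallest that 3 against 3 allows). Of 40 nuclear genes of the respiratory chain and ATP synthase, 38 were higher with forskolin (background 31.3%) and 2 did not pass (median -0.55). Of the 38, 10 were past 1.5-fold (background 7.81%). Against DMSO the list median was -0.59 with EPZ-6438 and -0.07 with forskolin. ATP5F1A, the catalytic-core α subunit of ATP synthase, stood at 223 ± 9.44 against 489 ± 22.0 CPM (-1.13, SE 0.05). Processed pseudogenes of ribosomal proteins, near-identical copies that can take their reads, moved likewise. Of 237, 180 were higher with forskolin and 1 higher with EPZ-6438 (median -0.63). Other processed pseudogenes leaned the same way by less, 271 of 1025 being higher with forskolin and 117 higher with EPZ-6438 (median -0.14).

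Mitochondrially encoded mRNAs did not share this direction. Of 13, 12 did not pass and MT-ND2 was higher with EPZ-6438, at 1760, 1566 and 2193 CPM against 1347, 1458 and 1232 CPM (0.45, SE 0.16, adjusted p = 0.0315). That call was lost without EPZ-6438 replicate 1 or 3 or forskolin replicate 1 or 3 (log2 fold change 0.31 to 0.55 over all 6 omissions). It was also lost in the fit of the 6 libraries (0.45, adjusted p = 0.054), where no member passed as higher with EPZ-6438. With no filter on low counts, 11 of 13 passed. Mitochondrial genes took 3.61%, 3.27% and 4.40% of counts in the EPZ-6438 libraries and 2.95%, 3.22% and 2.64% in the forskolin libraries (exact two-sided permutation p = 0.1, the smallest possible). The groups were just apart.

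**Figure D5:**
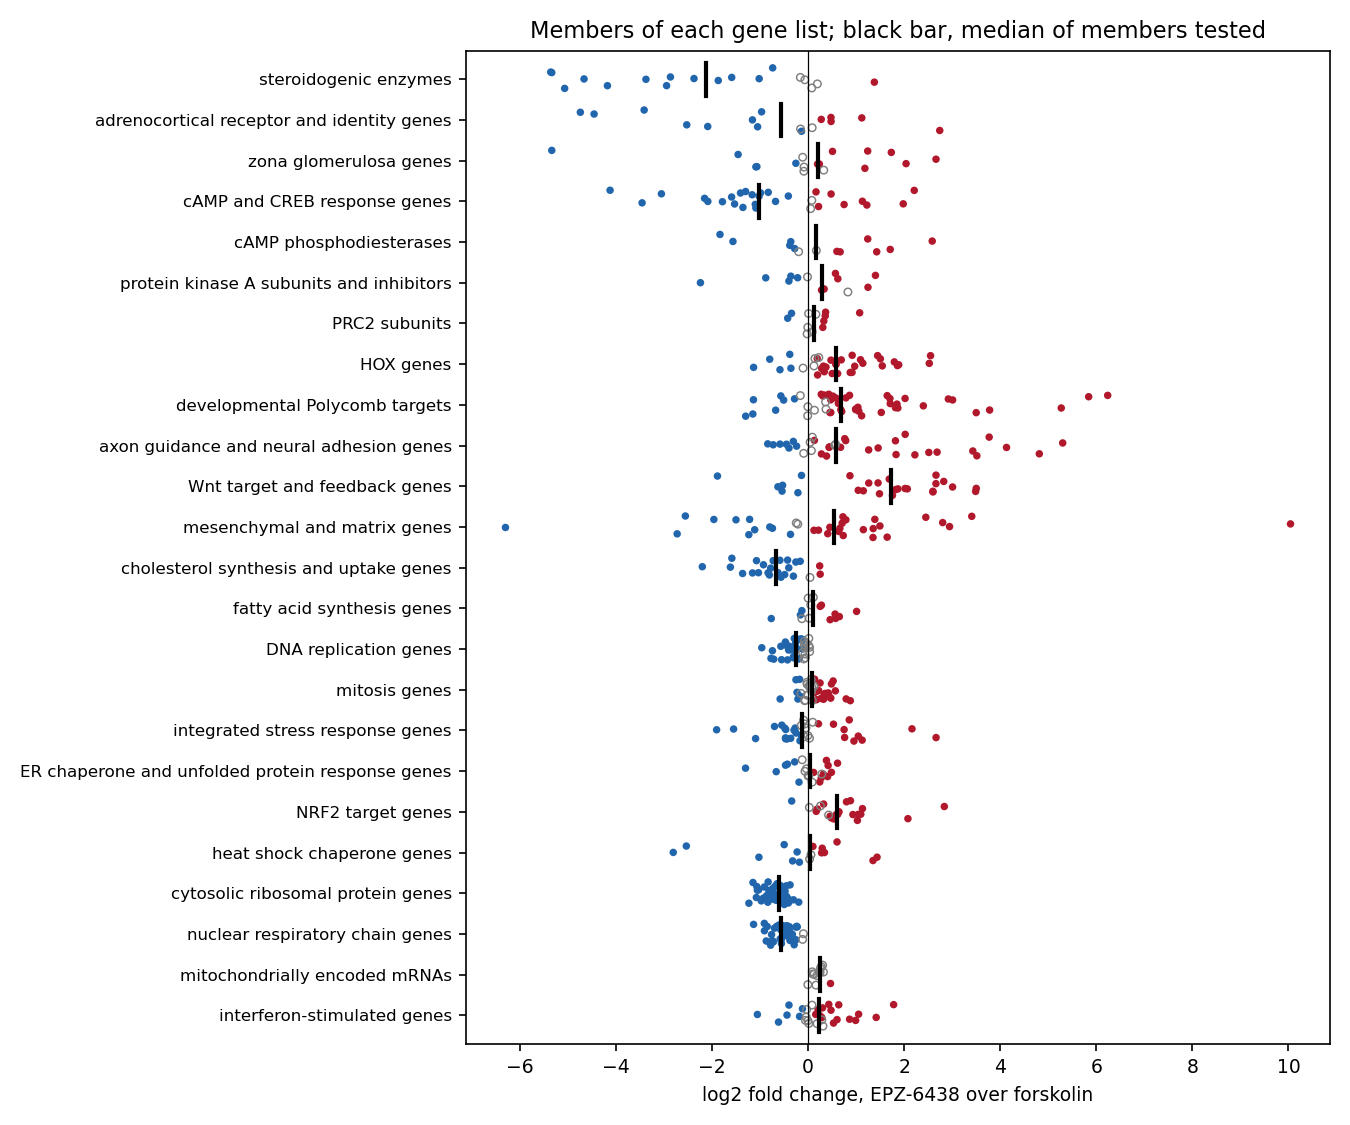
Log2 fold change of EPZ-6438 over forskolin for each tested member of each gene list, with red and blue points past an adjusted p of 0.05 (higher with EPZ-6438 and higher with forskolin), open grey points not past it, and black bars at the medians. The steroidogenic list lies farthest to the left by its median (-2.12) and the Wnt list farthest to the right (1.72), while ribosomal and nuclear respiratory chain genes lie close together left of 0.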

How the data were processed

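The libraries were made from polyadenylated RNA of NCI-H295R cultures. Per the submitters' processing notes, the authors used STAR, featureCounts and hg38. Not given in the sources used here are tool versions, which annotation and strand option were used, and how multimapping reads were treated. The table deposited by the authors holds estimated counts (expected counts, not normalized; 65.6% of non-zero values are whole within 1e-06), which were rounded. Its gene length column, of another unit, was deposited too and not used. Column names gave the sample of every value column (0 unmatched); positions are from GENCODE release 29.

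Using R 4.3.3 and edgeR 4.0.16, genes were filtered by filterByExpr with the 4 groups, scaled by TMM and fitted in 1 robust quasi-likelihood model of all 12 libraries (biological coefficient of variation 4.98%). The contrast of EPZ-6438 with forskolin was tested with glmQLFTest, and against 1.5-fold with glmTreat, at a Benjamini-Hochberg adjusted p of 0.05 over the 20360 genes. The SE is the log2 fold change divided by the square root of F. Intervals and floors from counts (3 counts) cover counting error only. Lists were described by counts and medians.

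The rule for named genes takes the 10 largest differences in each direction (mean log2 CPM of at least 1, no overlap), the members of each list that changed most or went against it, a fixed set of steroidogenic, cAMP, Wnt and PRC2 genes, and genes with at most 3 counts in one group. Other list members, where named or plotted, were chosen after their values were seen. Members and lists were chosen with earlier results of these data known. Alternatives were DESeq2 1.42.0, limma 3.58.1 (voom), other scalings and filters, a fit of the 6 libraries, unrounded counts, a fold of 2 and each library left out. The pipeline was tested on simulated data. 1 list gene (NOV) was not matched, and some list members are not reported here by name.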

Additional observations from a re-analysis of the deposited data

How the results depend on the processing

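The counts at the threshold (6175 and 6366) and past 1.5-fold (2177 and 1590) stayed within 1.5 times under the alternatives of tool, scaling, filter, rounding and libraries. Tested against 2-fold, 1140 genes (5.6%) were higher with EPZ-6438 and 661 (3.25%) with forskolin. With each library left out in turn, 5692 to 5924 were higher with EPZ-6438 and 5932 to 6114 with forskolin, and past 1.5-fold 2058 to 2158 and 1435 to 1585. Scaling by library size only moved the median of all genes by 0.09 and the share of calls higher with EPZ-6438 from 49.2% to 59.1% (7490 and 5176 genes). EZH2, near 0 throughout, turned sign with DESeq2 (0.000674), RLE scaling (0.00072), upper quartile scaling (0.0059), library size only (0.087), no filter (0.0071) and a minimum of 1 CPM (0.0011), and ranged from -0.018 to 0.0079 with each library left out. PDE8B ranged from -0.038 to 0.38 in the same way. The cause was not tested. Of the values of named genes under alternatives, 2659 kept direction and call, 26 lost and 12 gained a call (those that gained one were IGF2, SULT2A1 and SUZ12), and 9 turned sign. ACACA, EPHB1, ELOVL5, KIF18A, KRT8, MT-ND2 and PMVK were among the genes that lost a call. No paired analysis was possible because the labels number no replicates. Genes under about 1 CPM rest on few counts per library and have the widest intervals.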

Other observations

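Interferon-stimulated genes, which cells raise against viral nucleic acid, differed in both directions, with more of them higher with EPZ-6438 (median 0.23). Of 32, 30 were tested, 15 were higher with EPZ-6438 (background 30.3%), 6 higher with forskolin (background 31.3%) and 9 did not pass. The immunoproteasome subunit gene PSMB9 stood at 8.27 ± 1.13 against 2.42 ± 0.476 CPM (1.78), mainly through its fall with forskolin from 10.3 ± 0.892 CPM with DMSO. OAS1, an antiviral synthetase gene, was higher with forskolin (-1.05). Some genes were present under one compound and nearly absent under the other. Of the 20360 genes tested, 70 had at most 3 counts over all forskolin libraries and 13 over all EPZ-6438 libraries. The rule set no level for the other group, so these counts may include genes that were low under both compounds. A sum of 3 counts equals 0.0423 CPM in the forskolin libraries and 0.0323 CPM in the EPZ-6438 libraries. The cut was thus looser for forskolin, and 70 and 13 are not a like-for-like contrast. The potassium channel gene KCNA1 had a ratio of 91.3 (95% counting interval 31.0 to 445) and FGF19, an endocrine growth factor gene, 170 (30.2 to 6748), both higher with EPZ-6438. ATP4A, a gastric proton pump gene, had a ratio of 62.0 (20.8 to 305), and PI16, SPRR3 and CST5, at 0 in every EPZ-6438 library, were at least 46.9-fold, 37.4-fold and 36.8-fold higher with forskolin, against a floor of 3 counts over the group.

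Runs of at least 5 neighbouring protein-coding genes (neighbours among those tested) that all passed the test against 1.5-fold in 1 direction numbered 9, a pattern looked for after the values were seen and not tested against gene order at random. At the tip of chromosome 17, 7 genes from SCGB1C2 (from 137526) to TLCD3A (to 742972) were higher with forskolin; among them DOC2B, a vesicle fusion gene, stood at 32.0 against 477 CPM and the actin-binding RFLNB at 22.5 against 241 CPM. On chromosome 20, 7 genes from TMX4 to SNAP25 (7977348 to 10307418) were higher with EPZ-6438, as were 6 on chromosome 16 from RPGRIP1L to MMP2 (53598153 to 55506691), which hold IRX3, IRX5 and IRX6. Some runs hold overlapping genes, such as HSPD1, HSPE1, HSPE1-MOB4 and MOB4 on chromosome 2, whose counts may share reads.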
